A study of Mus musculus with 24 samples.

Results

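Epithelium scraped from the jejunum of mice lacking caspase-1 was compared with that of wild-type mice after a fat load. All arrays labelled as jejunum were taken, which were 6 of the 24 arrays of the study, 3 from each genotype. The other arrays hold duodenum, ileum and liver. Every mouse was male, 14 to 16 weeks old and kept on chow. The Casp1-null mice had been backcrossed to C57Bl/6 for 10 generations, and the controls were C57Bl/6J mice of matched age. Both genotypes were fasted overnight, were given 200 µL of olive oil into the stomach and were sampled 2 h later, so the comparison holds no fasted jejunum and gives no response to the oil itself. The RNA used, 100 ng for each array, had an integrity number above 8.0. No arrays of the Casp1-null breeding background with caspase-1 intact were included, so for every gene but Casp1 a difference of genotype and a difference of strain cannot be told apart. The labels do not say whether a jejunal array shares its mouse with an array of another segment.

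Caspase-1 is the protease of inflammasomes, cytosolic complexes that sense microbial products and cell damage and release mature interleukin-1beta and interleukin-18. The jejunum takes up most dietary fat, re-esterifies it to triglyceride and exports it as chylomicrons. Its epithelium also senses luminal bacteria, and NF-kappaB, a family of transcription factors, drives much of that response: the nitric oxide synthase Nos2, the hydrogen peroxide-producing oxidase Duox2, chemokines, and the inhibitors that switch the pathway off again.

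That epithelial response is described first. A gene is called, and said to rise or fall, at an adjusted p under 0.05 in limma. Of 46 measured genes of the list of epithelial oxidase and bacterial response genes, 13 fell and 0 rose in Casp1-null jejunum, where 0.999% of all genes fell and 1.06% rose. The list was drawn up from textbook knowledge with the fall of several members already known, so this count is a description and not independent evidence of a fall. Promoters from RefSeq (GRCm38.p6) of those falling members are shown where their last 100 bases before the annotated start hold the kappaB consensus, the DNA motif bound by NF-kappaB. They are shown because these genes moved together, and they print in lower case, 5′ to 3′ along the gene, with the matches in capitals. Ccl20 lies at chr1:83116666-83116765 (plus strand), Nfkb2 at chr19:46304637-46304736 (plus), Nfkbia at chr12:55492648-55492747 (minus), Pglyrp1 at chr7:18884590-18884689 (plus), Tnip3 at chr6:65590298-65590397 (plus) and Ubd at chr17:37193792-37193891 (plus).
Ccl20: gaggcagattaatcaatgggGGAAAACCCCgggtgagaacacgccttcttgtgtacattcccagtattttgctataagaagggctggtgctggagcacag
Nfkb2: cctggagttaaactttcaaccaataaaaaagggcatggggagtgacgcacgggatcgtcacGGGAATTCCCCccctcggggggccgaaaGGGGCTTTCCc
Nfkbia: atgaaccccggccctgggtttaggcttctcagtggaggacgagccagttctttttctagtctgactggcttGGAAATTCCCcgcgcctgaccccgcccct
Pglyrp1: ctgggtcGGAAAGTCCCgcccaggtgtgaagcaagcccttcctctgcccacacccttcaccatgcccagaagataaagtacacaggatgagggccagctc
Tnip3: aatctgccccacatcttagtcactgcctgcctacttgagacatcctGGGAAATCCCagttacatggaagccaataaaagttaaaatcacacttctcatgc
Ubd: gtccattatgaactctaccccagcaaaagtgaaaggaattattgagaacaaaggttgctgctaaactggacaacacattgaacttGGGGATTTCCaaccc
The Nfkb2 promoter holds 3 matches, a pair of them overlapping, and each of the others holds 1. The match lies 15 bases before the start in Ubd, 29 in Nfkbia, 54 in Tnip3, 80 in Ccl20 and 93 in Pglyrp1.

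The kappaB consensus was searched on both strands in the 250 bases before the start of 14749 measured genes, and 4.15% of these promoters held it. Among genes that fell in Casp1-null jejunum the share was 8.92% (14 of 157), and among those that rose it was 6.62% (10 of 151). In the oxidase and bacterial response list it was 37.8% (14 of 37) over all members with a promoter and 54.5% (6 of 11) over those that fell. The list holds textbook targets of NF-kappaB and was drawn up with the fall of several members known, so neither share is independent of the motif or of the fall. Its 6 members that fell and held a match are also among the 14 counted over all genes that fell. Of the members that fell, Duox2, Duoxa2, Birc3, Tnf and Sprr2a1 had no match in this window. Nos2 and Cxcl16, which also fell, had no RefSeq promoter entry and were not searched. The AP-1 motif, TGACTCA or TGAGTCA on either strand, was in 3.81% of all promoters, 3.82% of those of genes that fell and 0.662% of those of genes that rose. Direct copies of AGGTCA spaced by 1 base, a motif of lipid-sensing nuclear receptors, were in 0.0407% of all promoters, in that of 1 gene that fell and in none of those of genes that rose. A match describes the letters only and was not tested as a site.

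Casp1 was measured first, as a check of the labels. Its log2 expression was 9.13, 9.44 and 9.32 on wild-type arrays 1, 2 and 3 and 6.33, 6.52 and 5.82 on Casp1-null arrays 1, 2 and 3, and every array matched its label. The difference was an 8.41-fold fall (log2 change -3.07, SE 0.226; limma, adjusted p = 3.06e-06). The Casp1-null level stayed above the lowest median of the jejunal arrays, 4.88, which is used throughout as the limit under which a group mean is read as not shown above background. The position of these probes relative to the deletion is unknown here.

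Casp4, which encodes caspase-11, the sensor of intracellular lipopolysaccharide, is the next gene to Casp1 on chromosome 9. It was 9.03, 8.91 and 9.22 in wild type and 7.29, 7.29 and 6.68 in Casp1-null mice. The groups lay far apart, with a 3.91-fold fall (SE 0.274 on the log2 scale; limma, adjusted p = 0.00141). Casp12, another paralog beside them, was under the background limit in both groups and was not called. Among the 18 measured genes within 10 genes of Casp1 on either side, Casp4 was the single one called. Of these neighbours 12 were under the background limit in both groups, so a difference in them could not be seen.

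Over all genes, 387 of 18820 (2.06%) were called at an adjusted p under 0.05 by limma, 199 higher (1.06%) and 188 lower (0.999%) in Casp1-null jejunum. At an unadjusted p under 0.05 there were 2433 of the 18820. Changes were above 0 for 9287 of all genes and below 0 for 9533. These counts over all genes stand beside those of the lists below. Of the called genes 55 rose and 79 fell at least 2-fold by the measured change, which takes no account of the background limit. In 17 called genes both groups were under that limit. All 387 had groups that did not overlap, against 19.5% of all genes. The count depended on the arrays, and leaving out wild-type array 1, wild-type array 2 or Casp1-null array 3 brought it to 196, 220 and 242. Arrays of 1 genotype correlated across probe sets with r of 0.9876 to 0.9921 and arrays of different genotype with 0.9824 to 0.9888. Probe sets of an array are not replicates of each other, so these values only describe the arrays.

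**Figure D1:**
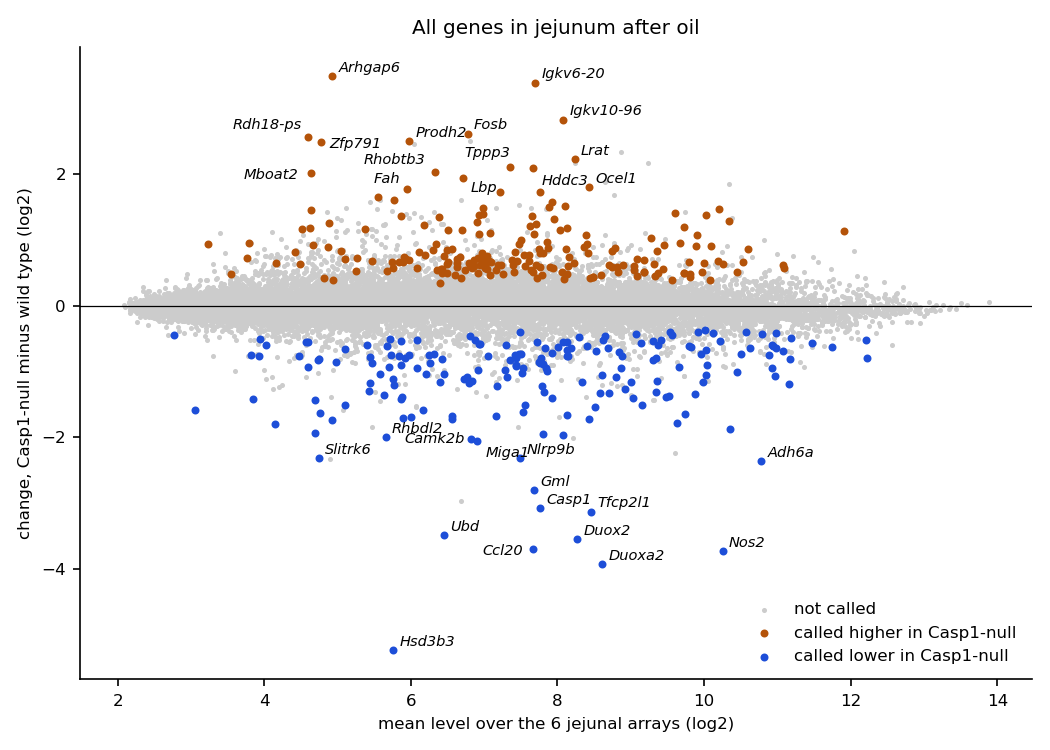
Change in Casp1-null against wild-type jejunum (log2, vertical axis) of each of 18820 genes by its mean level over the 6 jejunal arrays (log2, horizontal axis), with genes called by limma coloured and the 15 largest called rises and falls named. Hsd3b3 stands lowest at -5.24, and Nos2, Duox2, Duoxa2, Ccl20 and Ubd lie together between -3.93 and -3.49.

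The scraped material was checked against markers of its cells. The 18 enterocyte markers had a mean level of 12.654 to 12.675 on wild-type and 12.571 to 12.662 on Casp1-null arrays, and 0 of them were called or passed an unadjusted p under 0.05, so the arrays carried the epithelium their labels name. Whether each came from the jejunum and not a neighbouring segment was not checked. None of the 176 entries of 14 cell type lists was called in either direction by limma. At an unadjusted p under 0.05, 24 passed, beside 2433 of all 18820 genes. Of the 24, 8 were of T cells and intraepithelial lymphocytes and 7 of tuft cells. Goblet cell markers lay at 10.647 to 10.88 in wild type and 10.691 to 10.886 in Casp1-null mice. Tuft cell markers had a change below 0 for 8 of 8 genes, with a median of -0.53 and list levels of 6.114 to 6.357 against 5.407 to 6.012. The tuft cell channel Trpm5 was 7.74 ± 0.287 in wild type against 6.57 ± 0.437 in Casp1-null mice (SD, n = 3 each), and by limma it was not called (adjusted p = 0.111). In such bulk samples fewer cells of a type and less RNA per cell cannot be told apart, and the part of these cells in the differences below was not tested.

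Casp1-null array 3 stood apart in markers of the tissue under the epithelium. Stroma markers were at 5.901 on that array and between 4.776 and 5.077 on the other 5. Endothelium markers were at 5.373 on it and between 4.31 and 4.566 on the others. Myeloid markers were at 5.887 on it and between 5.111 and 5.404 elsewhere. Calls in the text that were lost without this array are given with their values or with the number of fits that kept them.

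**Figure D2:**
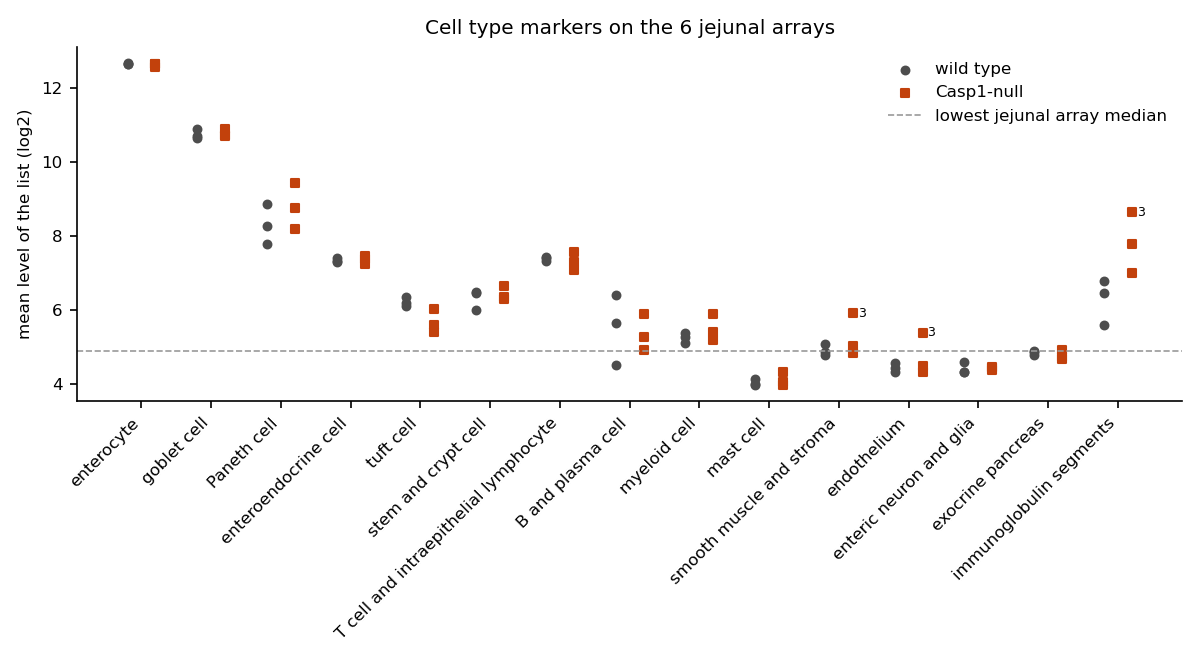
Mean level of the markers of each cell type and of the immunoglobulin segments (log2) on each of the 6 jejunal arrays; Casp1-null array 3 is numbered for stroma, endothelium and immunoglobulins, and the dashed line is the background limit. Enterocyte markers coincide near 12.6 in both genotypes, while Casp1-null array 3 stands above the other arrays in stroma (5.901) and endothelium (5.373).

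The nitric oxide synthase and the oxidase of the epithelial defence fell. Nos2, the inducible nitric oxide synthase, was 12.26, 11.99 and 12.10 in wild type and 7.62, 8.54 and 9.01 in Casp1-null mice. The highest Casp1-null array lay 2.99 below the lowest wild-type array. The fall was 13.3-fold (SE 0.544 on the log2 scale; limma, adjusted p = 0.00197). Duox2, the catalytic part of the epithelial oxidase, was 10.55, 10.18 and 9.38 against 5.79, 7.63 and 6.06. Duoxa2, its maturation factor, was 11.12, 10.71 and 9.88 against 6.01, 7.74 and 6.18. In both genes wild-type array 3 was the lowest of its group and Casp1-null array 2 the highest of its own, and the groups did not overlap. Duoxa2 fell 15.2-fold (limma, adjusted p = 0.00355) and Duox2 11.7-fold (adjusted p = 0.017). Duox2 was not called in 4 of the 6 fits that left out an array, and its adjusted p reached 0.0875 without wild-type array 1.

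Further genes of oxidases were looked at after these values had been seen. Noxo1, the organiser of the colonic-type oxidase NOX1, fell 1.70-fold (limma, adjusted p = 0.0241), and Cyba, the membrane partner of several oxidases, fell 2.00-fold (adjusted p = 0.0477). Cyba was called in 0 of 6 fits that left out an array and Noxo1 in 2. The oxidases Nox1 and Duox1, both members of the list, were under the background limit in both groups and were not called.

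Among secreted signals, the chemokine Ccl20, which draws CCR6-bearing lymphocytes and dendritic cells to the epithelium, was 9.52, 9.32 and 9.68 in wild type and 5.39, 6.79 and 5.26 in Casp1-null mice. It fell 12.9-fold (SE 0.496; limma, adjusted p = 0.00104). Cxcl16, a chemokine that is also a scavenger receptor, was 9.47, 9.12 and 9.44 against 8.17, 8.22 and 8.37 and fell 2.13-fold (limma, adjusted p = 0.0036). For Cxcl16 the spread within each group was far smaller than the gap. Tnf, an inflammatory cytokine, was 6.05, 5.51 and 6.67 in wild type and, with 4.76, 4.66 and 4.91, near the background limit in Casp1-null mice. It fell at least 2.29-fold (limma, adjusted p = 0.0331) and was called in 1 of 6 fits that left out an array. Pglyrp1, a peptidoglycan-binding protein that kills bacteria, was 10.57, 10.70 and 10.41 against 8.65, 8.89 and 9.18 and fell 3.14-fold (SE 0.15; limma, adjusted p = 2.6e-05). Ubd, a ubiquitin-like protein induced by inflammatory cytokines, was 8.464, 8.185 and 7.951 against 4.996, 4.374 and 4.760, a fall of at least 9.96-fold (SE 0.496; limma, adjusted p = 0.00163).

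Of the regulators of NF-kappaB some fell and others were not called. Tnip3, an inhibitor of the pathway that NF-kappaB itself induces, was 5.63, 5.53 and 5.79 in wild type and 3.73, 3.59 and 3.85 in Casp1-null mice, which is below the background limit. The SD of its groups was 0.134 and 0.129, and it fell at least 1.70-fold (limma, adjusted p = 2.64e-06). Nfkb2, the precursor of the p52 subunit, was 9.83, 9.20 and 9.71 against 8.23, 8.33 and 8.71 and fell 2.24-fold (limma, adjusted p = 0.00359). Birc3, a ubiquitin ligase of TNF signalling, fell 1.56-fold (limma, adjusted p = 0.0294), and Nfkbia, the classical inhibitor, fell 1.67-fold (adjusted p = 0.0422). Neither call held without every array: Birc3 was called in 0 and Nfkbia in 2 of 6 fits that left out an array. Sprr2a1, a small proline-rich protein induced by colonising bacteria, went from 11.76 ± 0.381 to 10.57 ± 0.567 (SD, n = 3 each; limma, adjusted p = 0.034). It has near-identical copies, and its 2 probe sets gave identical values. Sprr2a1 was called in 2 of 6 fits that left out an array, with an adjusted p of 0.162 without wild-type array 1. Nfkbib, a further inhibitor, and Cd40, a receptor of the TNF family, were chosen after their values had been seen and fell 1.57-fold (limma, adjusted p = 0.0348; 1 of 6 fits that left out an array) and 2.06-fold (adjusted p = 0.0018).

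Most members of the list were not called. Of its 46 measured genes, 33 were not called, 39 had a change below 0 and the median change was -0.62, beside a median of -0.002 over all genes. Its mean level lay between 7.75 and 7.811 on wild-type and between 6.758 and 6.943 on Casp1-null arrays. Genes not called included Bcl3, a partner of NF-kappaB (log2 change -0.93, limma adjusted p = 0.0815), and Relb, a subunit of NF-kappaB (-0.69, adjusted p = 0.0862). The inhibitors Tnip1 (-0.56, adjusted p = 0.224) and Tnfaip3 (-0.64, adjusted p = 0.351) were not called either, and the groups of Tnfaip3 overlapped. Lcn2, which traps bacterial iron carriers, ran from 5.44 to 7.63 in wild type against 4.10 to 5.31 in Casp1-null mice (adjusted p = 0.173). Fut2, which fucosylates the epithelial surface, changed by -1.53 (adjusted p = 0.435). Among bacterial response genes of high level, the lectin Reg3b was 13.08 ± 0.092 in wild type against 12.81 ± 0.259 in Casp1-null mice, and Reg3g was 12.86 ± 0.0339 and 12.26 ± 0.485 (SD, n = 3 each). Neither lectin was called by limma (adjusted p = 0.745 and 0.484). Pigr, which carries secretory IgA across the epithelium, changed by -0.17 (adjusted p = 0.441). The count of 13 became 8 without wild-type array 1 or without Casp1-null array 1, 10 without each of the other 4 arrays, and 8 when only the 6 jejunal arrays entered the fit.

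**Figure D3:**
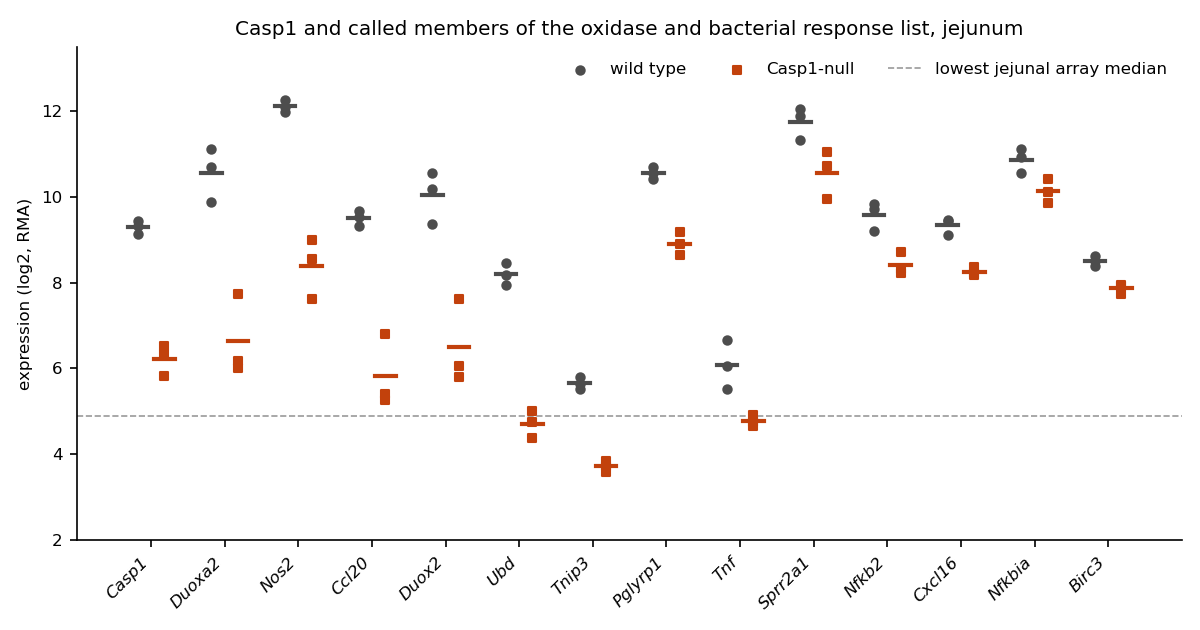
Log2 expression of Casp1 and of the 13 list members that fell, on each of the 3 wild-type (grey circles) and 3 Casp1-null arrays (orange squares); short lines are group means and the dashed line is the background limit. The genotypes do not overlap for any gene shown, and Ubd, Tnip3 and Tnf reach or pass under the limit in Casp1-null mice.

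The same genes were then set beside the duodenum and ileum, whose mice were treated alike. Whether the jejunal difference itself differed from the mean of the other segments was called by limma for 3 of all genes (0.0159%), and 840 passed an unadjusted p under 0.05. Tnip3 was one of them (adjusted p = 0.00136). In duodenum (3.82 and 3.61) and ileum (4.12 and 3.96) both genotypes were under the background limit, so a fall there could not be seen, and the test does not set the jejunum apart for this gene. Pglyrp1 changed by 0.06 in duodenum and -0.49 in ileum, and the difference of differences was -1.44 (SE 0.184; adjusted p = 0.0204), with an adjusted p of 0.131 without wild-type array 2 and of 0.0713 without Casp1-null array 2. The remaining gene, Fosb, is described with the immediate early genes.

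For Nos2, Ccl20, Duox2 and Ubd the jejunal difference was not shown to differ from the mean of the other segments. Jejunum against ileum alone was not tested. Ccl20 was above the background limit in every group and changed by -0.67 in duodenum and -1.24 in ileum, with a difference of differences of -2.74 (SE 0.608; limma, adjusted p = 0.388). Nos2 changed by -0.04 in ileum, where its means were 11.18 and 11.14, and in duodenum it was 6.24 in wild type and 4.38, under the background limit, in Casp1-null mice. Duox2 changed by -0.75 in ileum and went from 6.19 to 4.48 in duodenum. Ubd changed by 0.59 in ileum and was 4.94 and 4.18 in duodenum, so next to no fall could be seen there. With the duodenal Casp1-null means of Nos2, Duox2 and Ubd under the limit, their differences in that segment are lower bounds and the segments are not ranked. The test of the difference gave an adjusted p of 0.507 for Nos2, 0.985 for Duox2 and 0.145 for Ubd.

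Genes of the inflammasome moved in both directions. Of 33 measured members 4 fell, Casp1, Casp4, Nlrp9b and Nlrc4, and 1, Aim2, rose, with a median change of -0.12. Nlrc4, the adaptor that responds to bacterial flagellin and secretion systems, was 10.09, 9.97 and 9.95 in wild type and 8.88, 8.65 and 8.54 in Casp1-null mice and fell 2.49-fold (SE 0.148; limma, adjusted p = 0.000225). Nlrp9b, an intestinal epithelial sensor of viral RNA, fell 4.99-fold (SE 0.403; limma, adjusted p = 0.00696). Aim2, the sensor of cytosolic DNA, was 6.43, 6.06 and 6.30 against 7.66, 7.61 and 7.34 and rose 2.42-fold (SE 0.162; limma, adjusted p = 0.000671). Aim2 and Nlrc4 were also called in duodenum and ileum, in the same directions. Il18, a substrate of caspase-1 that the epithelium makes constantly, was 9.44 ± 0.322 in wild type against 9.05 ± 0.122 in Casp1-null mice (SD, n = 3 each) and by limma was not called (adjusted p = 0.757).

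Interferon-stimulated genes had changes below 0 for 30 of 34 members, against 9533 of all 18820 genes. The list's median was -0.38, and 1 member was called. This was Oasl2, an antiviral oligoadenylate synthetase-like protein, at 10.76, 10.63 and 10.19 in wild type and 9.10, 8.71 and 8.42 in Casp1-null mice. It fell 3.44-fold (SE 0.265; limma, adjusted p = 0.00228). Xaf1, another interferon target, changed by -1.08 (adjusted p = 0.131). MHC class II genes had 0 of 10 called by limma, 0 at an unadjusted p under 0.05 and a median change of -0.28. H2-Eb1, one of its chains, was 11.59 ± 0.0878 in wild type against 11.16 ± 0.207 in Casp1-null mice (SD, n = 3 each). The antimicrobial and Paneth cell list had 0 of 11 called by limma, 0 at an unadjusted p under 0.05 and a median of 0.54, with Paneth markers between 7.767 and 8.861 on wild-type and between 8.189 and 9.434 on Casp1-null arrays.

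Most immunoglobulin segments had changes above 0 in Casp1-null jejunum. Taken by name after the data had been seen, 16 of 17 had a change above 0, with a median of 1.48, and 2 were called. Igkv10-96, a kappa variable segment, was 7.70, 6.64 and 5.65 in wild type and 9.22, 9.51 and 9.74 in Casp1-null mice (7.10-fold; limma, adjusted p = 0.0136). Igkv6-20 was 6.50, 5.95 and 5.56 against 10.56, 7.34 and 10.28 (10.5-fold; limma, adjusted p = 0.037). Casp1-null array 2 was far below its group's other arrays for Igkv6-20. Igkv6-20 was called in 1 of 6 fits that left out an array, with an adjusted p of 0.154 without Casp1-null array 3, and Igkv10-96 in 3, with up to 0.0647 (without wild-type array 3). The constant regions Igha (log2 change 2.33, adjusted p = 0.098), Igkc (2.16), Ighg3 (2.17) and Ighm (1.88) were not called. In duodenum Igkv6-20 (4.08, limma adjusted p = 0.0145) and Igkv10-96 (2.90, adjusted p = 0.0148) were also called higher. In ileum they changed by -0.21 and 1.05 and were not called. Igha changed by 2.38 in duodenum and by -0.67 in ileum and was called in neither.

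Over the 17 segments the level was 5.576 to 6.774 in wild type and, on Casp1-null arrays 1, 2 and 3, 7.768, 6.988 and 8.636, so the array rich in stroma was also the highest. Jchain, which joins IgA into dimers, was 7.94 ± 0.32 in wild type against 9.61 ± 0.788 in Casp1-null mice (SD, n = 3 each; limma, adjusted p = 0.0869). The list of B and plasma cell markers as a whole did not separate the genotypes, with 4.497 to 6.403 in wild type and 4.911 to 5.884 in Casp1-null mice. Of its 13 measured genes 8 had a change below 0, with a median of -0.22, and the change of Jchain, 1.68, was the highest. The part of plasma cell content or of the stroma on that array in the higher segments was not tested. Segments of 1 family share sequence, so probes may read several of them. Of 19 T cell markers 12 had a change below 0, with a median of -0.05 and a range from -0.97 to 1.06. The highest was that of Cd8b1, a chain of the CD8 receptor, at 6.37 ± 0.122 and 7.44 ± 0.392 (SD, n = 3 each; limma, adjusted p = 0.0681).

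The mice had been given fat, and the genes that package and export it were not called. None of 37 genes of chylomicron assembly and export was called by limma (median change -0.06; 3 at an unadjusted p under 0.05), nor any of 24 of lipogenesis (7), 19 of cholesterol synthesis (1) or 16 of sterol absorption and efflux (3). Mttp, which loads lipid onto apolipoprotein B, was 12.82 ± 0.0247 in wild type against 12.72 ± 0.043 in Casp1-null mice. Fabp2, the intestinal fatty acid-binding protein, was 13.20 ± 0.0324 and 13.12 ± 0.125 (SD, n = 3 each). Apobec1, the editor of apolipoprotein B mRNA, changed by -0.58 (adjusted p = 0.238). Of 19 genes of fatty acid uptake and binding, 1 fell: Dbi, which carries acyl-CoA, at 11.77 ± 0.127 and 11.19 ± 0.314 (limma, adjusted p = 0.0397). Dbi was called in 2 of 6 fits that left out an array, and its second probe set was not called (-0.32, adjusted p = 0.577).

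Of 20 genes of triglyceride synthesis, 2 rose and 0 fell. Agpat3, which acylates lysophosphatidic acid, was 10.12, 10.24 and 10.27 in wild type and 10.80, 10.87 and 10.92 in Casp1-null mice (1.58-fold; limma, adjusted p = 0.0448). Gpat4, which makes lysophosphatidic acid, rose 1.41-fold (adjusted p = 0.0325). Both depended on all arrays being in: Agpat3 was called in 0 and Gpat4 in 1 of 6 fits that left out an array. Of 33 genes of lipid droplets and lipases, Angptl4 rose and the carboxylesterase Ces1f fell 2.24-fold, from 10.57 ± 0.307 to 9.40 ± 0.503 (SD, n = 3 each; limma, adjusted p = 0.00762).

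Fatty acid oxidation had 4 of 48 genes higher and 0 lower, with a median of 0.04 over the list. Angptl4, a fatty acid-induced inhibitor of lipoprotein lipase, was 9.55, 9.30 and 9.15 in wild type and 10.35, 10.81 and 10.96 in Casp1-null mice and rose 2.59-fold (SE 0.151; limma, adjusted p = 0.000192). Acaa2, the thiolase of mitochondrial beta-oxidation, was 11.06, 11.41 and 11.56 against 12.53, 12.37 and 12.54 and rose 2.20-fold (SE 0.132; limma, adjusted p = 0.000302). Both genes were also called higher in ileum. Ppargc1a, a coactivator of mitochondrial genes, rose 2.03-fold (adjusted p = 0.00813), while its second probe set, with a change of 1.03, was not called (adjusted p = 0.0933). The long-chain dehydrogenase Acadl rose 1.59-fold (adjusted p = 0.0277) but was called in only 2 of 6 fits that left out an array. Pdk4, which holds back glucose oxidation, was 9.03, 9.56 and 9.69 against 10.98, 11.05 and 11.78 and was just outside the threshold (log2 change 1.85, adjusted p = 0.0543). Over the list, changes ran from -0.90 to 1.85, 30 of 48 were above 0 and 14 passed an unadjusted p under 0.05. Over all 18820 genes, 9287 were above 0 and 2433 passed.

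**Figure D4:**
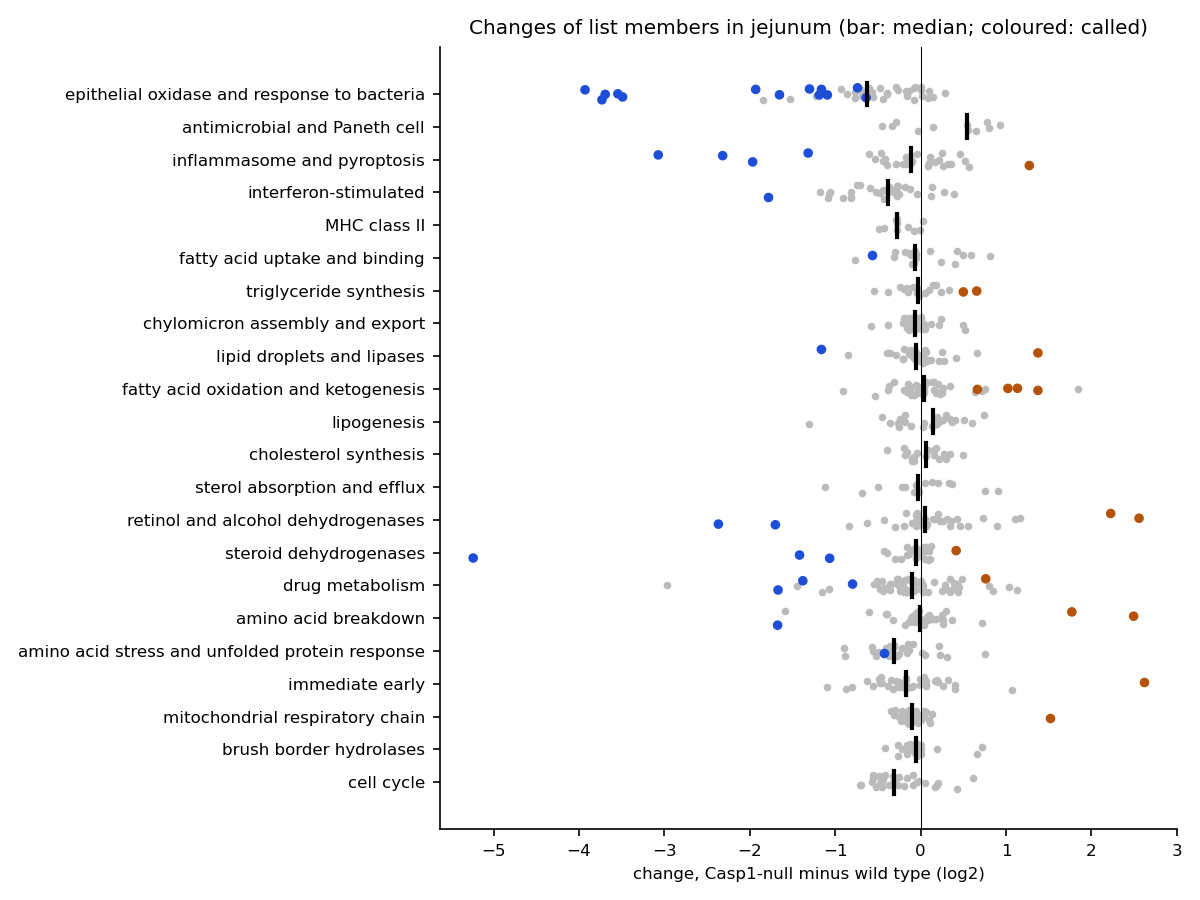
Change in Casp1-null against wild-type jejunum (log2) of each measured member of 22 gene lists; coloured points were called by limma (blue lower, brown higher), grey points were not, and bars are list medians. The called falls of the oxidase and bacterial response list reach -3.93, while chylomicron assembly and export has no coloured point and a median of -0.06.

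Retinoid genes moved apart. Of 39 measured genes of retinol and alcohol metabolism 2 rose and 2 fell. Lrat, which esterifies retinol for storage or export in chylomicrons, was 6.80, 7.10 and 7.46 in wild type and 9.53, 9.62 and 8.88 in Casp1-null mice and rose 4.68-fold (SE 0.332; limma, adjusted p = 0.00228). Bco1, which cleaves beta-carotene to retinal, was 7.33, 6.94 and 6.30 against 4.92, 5.35 and 5.19 and fell 3.25-fold (SE 0.264; limma, adjusted p = 0.00314). The alcohol dehydrogenase Adh6a was 11.88, 12.06 and 11.94 against 9.72, 9.33 and 9.72, a 5.16-fold fall (SE 0.353; limma, adjusted p = 0.00229). The pseudogene Rdh18-ps rose at least 1.98-fold from under the background limit (adjusted p = 0.0057). These 4 genes were called in jejunum and in neither of the other segments, and for none was the difference between segments called (Bco1 -1.53, adjusted p = 0.307; Lrat 1.49, adjusted p = 0.668). Isx, the intestinal repressor of Bco1, changed by 0.42 (adjusted p = 0.187).

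Hsd3b3, a steroid dehydrogenase, had the largest measured fall of all genes. It was 8.23, 8.20 and 8.71 in wild type and 3.31, 3.13 and 2.98 in Casp1-null mice, under the background limit, so it fell at least 11.3-fold (limma, adjusted p = 1.72e-08). It was also called lower in duodenum, from 9.44 to 4.57, and in ileum, from 8.82 to 3.45, with the Casp1-null mean under the limit in each. Of 27 steroid genes 3 fell and 1 rose. Hsd17b6 fell 2.09-fold (adjusted p = 0.0467), Hsd3b2 fell with both groups under the background limit and so with no size, and Star, the mitochondrial cholesterol carrier, rose at least 1.10-fold (adjusted p = 0.0315). Hsd17b6 and Star were each called in 1 of 6 fits that left out an array. Hsd3b2 and Hsd3b3 are close paralogs, so their probes may share signal.

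Of 65 genes of drug metabolism 3 fell and 1 rose. Abcc3, an exporter of conjugates and bile acids, was 10.22 ± 0.336 in wild type against 8.84 ± 0.128 in Casp1-null mice (SD, n = 3 each; 2.60-fold; limma, adjusted p = 0.00579). Cyp2c68, a cytochrome of a family of close paralogs, fell 3.18-fold (adjusted p = 0.00597) and Nqo1, a quinone reductase, 1.74-fold (adjusted p = 0.0392). Ahr, the receptor that induces such enzymes in response to dietary and microbial ligands, rose 1.70-fold (adjusted p = 0.0235). Nqo1 and Ahr were each called in 2 of 6 fits that left out an array.

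Of 36 genes of amino acid breakdown, Prodh2 and Fah rose and Mccc1 fell. Prodh2, of hydroxyproline breakdown, was 4.80, 4.75 and 4.64 in wild type, under the background limit, and 7.47, 7.41 and 6.80 in Casp1-null mice, a rise of at least 5.08-fold (limma, adjusted p = 6.97e-05). Fah, the last enzyme of tyrosine breakdown, was 4.76, 5.14 and 5.29 against 7.22, 6.92 and 6.36 (3.41-fold; limma, adjusted p = 0.0172), and it was called in 2 of 6 fits that left out an array, with an adjusted p of 0.0921 without wild-type array 1. Mccc1, of leucine breakdown, was 7.46, 7.27 and 7.48 against 5.69, 5.87 and 5.63 (3.19-fold lower; limma, adjusted p = 6.07e-05). Fah and Mccc1 were also called in both other segments.

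Of 40 immediate early genes, those that cells switch on within minutes of a stimulus, Fosb alone was called. It was 5.79, 5.22 and 5.40 in wild type and 7.66, 8.64 and 7.96 in Casp1-null mice and rose 6.12-fold (SE 0.294; limma, adjusted p = 0.000225). In duodenum it changed by -0.38 and in ileum by 0.12, and the jejunal difference exceeded their mean by 2.75 (SE 0.36; adjusted p = 0.0204). Leaving out wild-type array 2 or 3 moved that adjusted p to 0.131 and 0.0749, and leaving out Casp1-null array 2 or 3 moved it to 0.0713 and 0.0596. Jun, a partner of FOS proteins in AP-1, changed in the other direction and was not called (-0.63, adjusted p = 0.0597), and the phosphatase Dusp5 changed by 1.07 (adjusted p = 0.0862). The list's median was -0.18.

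Of 31 genes of amino acid stress and the unfolded protein response, 25 were below 0, with a median of -0.32, and 11 passed an unadjusted p under 0.05. Over all 18820 genes, 9533 were below 0 and 2433 passed. Mean levels did not overlap between genotypes for this list or for others with 0 members called. Nutrient transporters were at 9.785 to 9.851 in wild type and 9.709 to 9.773 in Casp1-null mice. Tight junction genes were at 8.277 to 8.356 and 8.241 to 8.267. The stress and unfolded protein list was at 9.597 to 9.753 on wild-type and 9.339 to 9.478 on Casp1-null arrays. A single member was called: Atf6, a sensor of unfolded proteins, at 9.29 ± 0.058 and 8.86 ± 0.122 (SD, n = 3 each; limma, adjusted p = 0.041), which was called in 0 of 6 fits that left out an array. The chaperones Calr (-0.38, adjusted p = 0.0565) and Hsp90b1 (-0.58, adjusted p = 0.0658) were just outside the threshold. None of 18 clock genes was called by limma, and 3 passed an unadjusted p under 0.05. Per2 changed by -0.74 (adjusted p = 0.0709) and Cry2 by 0.91 (adjusted p = 0.0743). The 25 brush border hydrolases, 35 nutrient transporters, 18 tight junction genes and 30 cell cycle genes (median -0.31) had 0 members called by limma, and 1, 2, 5 and 2 at an unadjusted p under 0.05. Among 36 genes of mineral absorption Hamp fell at least 1.43-fold (limma, adjusted p = 0.000814), at 5.62, 5.65 and 4.94 in wild type and 3.84, 3.97 and 4.10, under the background limit, in Casp1-null mice. It encodes hepcidin, the iron hormone made mainly by liver, and in duodenum and ileum both genotypes were under the background limit, so the segments could not be compared.

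Of 24 epithelial differentiation factors 2 fell. Tfcp2l1, a transcription factor of epithelia, was 10.32, 9.91 and 9.83 in wild type and 6.61, 6.97 and 7.09 in Casp1-null mice and fell 8.76-fold (SE 0.197; limma, adjusted p = 7.22e-07). It was also called lower in duodenum (-1.20) and ileum (-2.13), and the difference between segments was not called (-1.47, adjusted p = 0.0847). Elf3, an epithelial factor that NF-kappaB induces, fell 1.66-fold (adjusted p = 0.0373) and was called in 1 of 6 fits that left out an array.

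Nnt, the mitochondrial transhydrogenase, separates substrains because C57BL/6J mice carry a deletion in it. It was the 1 gene called of 41 in the respiratory chain list, at 7.16, 7.34 and 7.55 in wild type and 8.93, 8.90 and 8.75 in Casp1-null mice (2.85-fold; SE 0.123; limma, adjusted p = 1.09e-05). Its second probe set changed by 0.12 (adjusted p = 0.785). That probe set was above the background limit in both groups, so the higher Nnt signal of the Casp1-null arrays rests on 1 of 2 probe sets. On the probe set used it is a difference at a substrain marker beside that at Casp1, and its part in the other differences was not tested.

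Other large falls were those of Gml (6.98-fold; limma, adjusted p = 0.0204), Slitrk6 (at least 2.02-fold), Miga1, which acts in mitochondrial fusion (4.15-fold), Camk2b, a calcium-dependent kinase (4.07-fold), and Rhbdl2, a membrane protease (at least 3.42-fold). Gml was called in 2 and Slitrk6 in 1 of 6 fits that left out an array, with an adjusted p of up to 0.103 and 0.0925. Other large rises were those of Arhgap6, a GTPase-activating protein (at least 3.46-fold), Zfp791 (at least 2.19-fold), Tppp3 (4.29-fold), Hddc3 (4.25-fold), Rhobtb3 (4.07-fold), Mboat2, a lysophospholipid acyltransferase (at least 1.69-fold), Lbp, which binds lipopolysaccharide (3.85-fold), and Ocel1 (3.47-fold). Tppp3 was called in 4 of 6 fits that left out an array, with an adjusted p of up to 0.0514.

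The calls overlapped with those of the other segments. Of the genes called in jejunum, 130 were called in the same direction in duodenum, which was 33.6% of the jejunal and 57.3% of the 227 duodenal calls (1.21% of all genes). With ileum 97 were shared, 25.1% of the jejunal and 57.7% of the 168 ileal calls (0.893% of all genes). None of the shared calls ran in opposite directions, and 72 genes were called alike in all 3 segments. These comparisons share no arrays, but they share 1 fit and possibly mice. Of the 134 calls of at least 2-fold by the measured change, 48 were called alike in both other segments and 58 in neither. Hsd3b3, Arhgap6, Camk2b, Miga1, Rhbdl2, Zfp791, Hddc3, Ocel1 and Mboat2 belong to the former, and Nos2, Duox2, Duoxa2, Ccl20, Ubd, Fosb, Lrat, Adh6a and Gml to the latter. A missing call in a segment does not show that the segments differ. Of the latter genes named, Fosb alone had a jejunal difference called apart from the mean of the other segments.

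**Figure D5:**
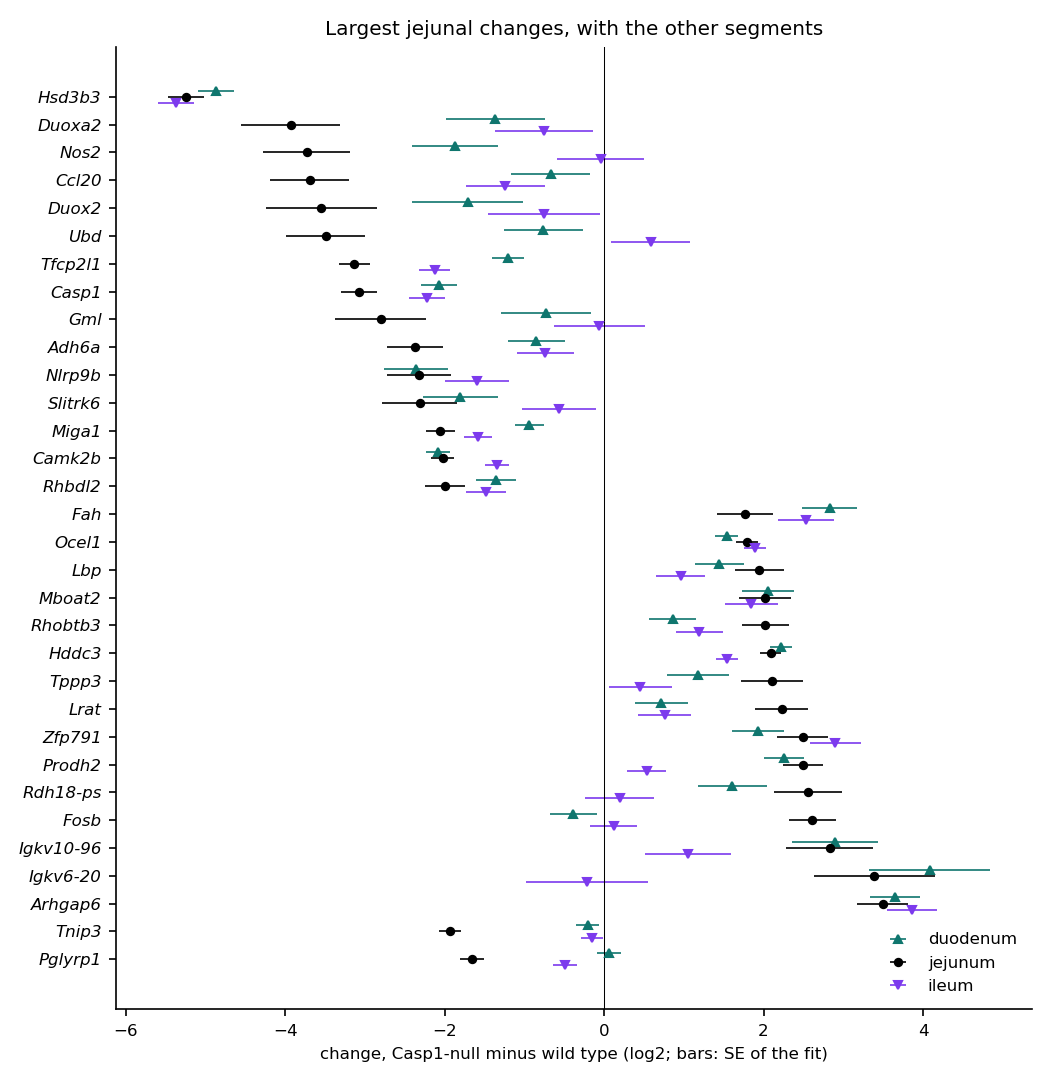
Change in Casp1-null against wild-type mice (log2, with the SE of the fit) in duodenum, jejunum and ileum for the 15 largest called falls and rises in jejunum and for Tnip3 and Pglyrp1. Hsd3b3 lies below 0 and Arhgap6 above 0 in all 3 segments, each with 1 genotype under the background limit there, and Pglyrp1 and Fosb lie farther from 0 in jejunum than in the other segments; Tnip3 was under the limit in duodenum and ileum.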

How the data were processed

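Transcripts were measured on Affymetrix whole-transcript arrays. The deposited values are log2 expression per probe set. Per the submitters' processing notes, the authors made them with RMA, robust multi-array averaging, of a version not named in the sources used here, and they were used without further scaling. Background subtraction and quantile normalization within RMA compress low signals and set arrays to a common distribution. The table held 35556 probe sets, of which 21218 named 1 gene symbol, 1881 several and 12457 none. Of 18820 genes, 1386 had several probe sets, and the one with the highest mean over all arrays was used. The RefSeq table held the gene identifier of 21185 probe sets. The build behind the array is unknown here, so genes are given without positions.

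The 18 intestinal arrays were fitted in 6 groups with limma 3.58.1 (lmFit and eBayes, no trend, 12 residual degrees of freedom) in R 4.3.3. Liver was not used. Two-sided p-values were adjusted over all probe sets (Benjamini-Hochberg), and the threshold for a call was an adjusted p of 0.05. Errors are SD of 3 arrays or SE of the fit. Precision is limited by the number of arrays. The p-values set a difference against the spread of arrays within groups, pooled over the 6 groups and not taken from the jejunal arrays alone. A fold against a group under the background limit is a lower bound. The fit was tested on simulated data. Python 3.11.15, pandas 2.3.3 and matplotlib 3.10.9 were used for lists, promoters and plots.

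The genes and lists were chosen with earlier results of these data known. Genes to be named were drawn from fixed groups, and not all members of these groups are given. The groups were the caspases and the 15 largest called rises and falls whose groups did not overlap. They also held the 5 members of each list with the smallest p and the 10 smallest p for the difference between segments. All members of the oxidase list and the neighbours of Casp1 were included too. Genes said to be chosen after their values were seen came in addition. A second probe set is given where 1 of a gene's probe sets was called and another was not. There were 27 process lists and 14 cell type lists, described by counts without a set test. Alternatives were other sets of arrays, trend with robust fitting, a level filter, further scaling, array weights, replicate blocks, a 2-fold minimum, another choice of probe set, and leaving out each array.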

Additional observations from a re-analysis of the deposited data

Results flagged for a closer look

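Tnip3, Pglyrp1 and Fosb stood out because their genotype difference in jejunum differed from the mean difference of duodenum and ileum in limma's test of that contrast. For Tnip3 the measured difference of differences was -1.75 (adjusted p = 0.00136), and it was called in all 6 fits that left out an array. Both genotypes were under the background limit in duodenum (3.82 and 3.61) and ileum (4.12 and 3.96), as was the Casp1-null jejunal mean, so this value is no size and a fall in the other segments could not be seen. For Pglyrp1 it was -1.44 (adjusted p = 0.0204), with wild-type means of 8.45 in duodenum and 11.25 in ileum around the 10.56 of jejunum, and it was not called without wild-type array 1 (0.0506) or 2 (0.131), without Casp1-null array 1 (0.0673) or 2 (0.0713), or without the ileal arrays (0.0557). For Fosb it was 2.75 (adjusted p = 0.0204), and the Casp1-null jejunal mean of 8.08 was the highest of its means in the 6 groups, the others lying between 4.90 and 5.70. Fosb was not called without wild-type array 2 (0.131) or 3 (0.0749) or without Casp1-null array 2 (0.0713) or 3 (0.0596).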

How the results depend on the processing

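The count of 387 called genes kept within 1.5 times under other scalings, the filter, trend with robust fitting, array weights, the fit without ileum and the choice of probe set (342 to 564). With only the 6 jejunal arrays it was 148 (64 higher, 84 lower), and the oxidase and bacterial response list then had 8 falls. At least 2-fold by the measured change, without regard to the background limit, 134 were called (55 higher, 79 lower). Leaving out 1 array gave 196 to 308 called genes, 91 to 165 higher and 105 to 149 lower, with 1 to 3 genes differing between segments and 8 to 10 falls in the oxidase list. The count of genes differing between segments was 7 without the ileal arrays and 9 with array weights, and leaving out array 2 of either genotype gave 1. The number of higher calls was 124 without Casp1-null array 1.

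A set of 133 genes, most of them with values in the text, was followed through the settings. Of these 133, 86 were called. In no setting did any of the 133 change direction. Of the 86, 56 were called in all 6 fits that left out an array and 52 in the fit of 6 arrays. The rescaled fits moved the median change of all genes to at most 0.0122.

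Replicate numbers were not taken as pairs: deviations of same-numbered wild-type and Casp1-null jejunal arrays correlated with r of -0.145 to -0.0854. With the number as a replicate block 329 genes were called, and with genotype and number as a random mouse 388 (consensus correlation 0.0458).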

Other observations

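Further called genes of at least 2-fold by the measured change that belong to none of the lists were chosen here after their values had been seen. Among the falls, B3gnt3, which extends mucin sugars, decreased by 1.88 on the log2 scale (limma, adjusted p = 7.2e-07), the membrane mucin Muc4 by 1.72 (adjusted p = 0.034) and the integrin Itgb6 by 1.40 (adjusted p = 0.0086). B3gnt3 was also lower in duodenum and ileum, whereas Muc4 and Itgb6 were called in neither. Muc4 was called in 1 of 6 fits that left out an array, and without wild-type array 1 Itgb6 had an adjusted p of 0.0555 and Slfn4 of 0.0562. The cell death gene Bid fell by 1.32 (adjusted p = 0.00228), the antiviral deaminase Apobec3 by 1.59 (adjusted p = 0.00257), Slfn4 by 1.67 (adjusted p = 0.00853) and Sqor, which oxidises sulfide in mitochondria, by 1.34 (adjusted p = 8.44e-05).

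Among the rises were Ndrg2 (1.73, adjusted p = 0.00763), Ndrg1 (1.28, adjusted p = 0.0431), the paraoxonase Pon3 (1.41, adjusted p = 3.68e-05), the transcription regulators Tox (1.50, adjusted p = 0.00225) and Id2 (1.07, adjusted p = 0.0217), and Ccl17 (1.22, adjusted p = 0.00571), a chemokine of dendritic cells. Cd209a, a lectin of dendritic cells, was under the background limit in wild type and rose at least 1.40-fold (adjusted p = 0.0448). The sialyltransferase St3gal1 changed by 1.72 on the probe set used (adjusted p = 0.00925) and by 0.05 on its second probe set (adjusted p = 0.96), which was above the background limit in both groups, so its rise rests on 1 of 2 probe sets. Of the 6 fits that left out an array, Ndrg1 was called in 2, and Id2 and Cd209a in 1 each.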
